A study of Mus musculus with 6 samples.

Results

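The 8 genes described here encode mouse enzymes and cofactors that take ubiquitin off histone H2A. They were listed by symbol: Bap1, Asxl1, Asxl2, Usp16, Mysm1, Usp3, Usp21 and Usp22, 8 of the 24421 genes in the expression table. Their RNA was followed in wild-type regulatory T cells (Treg), CD4 lymphocytes that depend on Foxp3 and hold immune responses in check, obtained from spleen and lymph nodes. There were 3 groups of 2 libraries each: Treg that were stimulated in vitro in the presence of iBP, Treg that were stimulated without it, and Treg that received no stimulation. All were of WT genotype. The design text calls iBP an inhibitor of H2AK119ub1, and neither its dose nor the kind and length of the stimulus is stated in the labels, nor are the age and sex of the mice. Poly(A) RNA was copied from oligo-dT and amplified by SMART-seq. Levels were given as FPKM, fragments scaled to the length of the transcript and to the number of mapped fragments in the library. Levels of different genes can thus be set side by side per length only. Differences between genes in copying or amplification are not removed by this scaling. Whether the replicates came from separate mice is not in the labels. The p-values set each difference between groups against the spread between libraries, estimated in part from the other genes tested. That spread may therefore be technical.

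H2AK119ub1 is a histone H2A that carries a single ubiquitin near its C-terminus. Polycomb repressive complex 1 places it through the RING-type ligases RNF2 and RING1, and several deubiquitinases remove it. BAP1 is the catalytic subunit of the Polycomb repressive deubiquitinase complex and is active only when bound to an ASXL protein, ASXL1 or its paralog ASXL2. USP16, MYSM1, USP3 and USP21 are further deubiquitinases reported to act on H2A, and USP22 is the enzyme of the deubiquitinase module of the coactivator complex SAGA, where it acts on H2B and H2A. USP21 and USP22 are also known in Treg as enzymes that remove ubiquitin from the FOXP3 protein.

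None of the 8 genes passed the test for a difference between any groups. All were expressed in every library, between 10.5 FPKM (Usp21, unstimulated replicate 1) and 42.6 FPKM (Usp22, stimulated with iBP replicate 2), above 63.7% to 88.2% of the genes with a value above 0 in the same library. The level of Usp22 was highest with iBP, intermediate in stimulated and lowest in unstimulated libraries. Its groups did not overlap, which held for 1 of the 8 genes and for 9.39% of the 10436 genes tested, and none of its differences passed after adjustment for all of these. For the other 7 genes the replicates of at least 1 pair of groups overlapped, and the highest library exceeded the lowest by 1.12-fold (Usp3) to 1.56-fold (Usp21).

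The genes lie on 8 different chromosomes of GRCm38 (GENCODE M21, matched by symbol). Bap1 (ENSMUSG00000021901.10) spans chr14:31251450-31259944 on the plus strand, and the genes of its cofactors are Asxl1 (chr2:153345829-153404007, plus strand) and Asxl2 (chr12:3426857-3506852, plus strand). Usp16 (chr16:87454703-87483517) is also on the plus strand, while Mysm1 (chr4:94942040-94979100), Usp3 (chr9:66514637-66593142), Usp21 (chr1:171281945-171287991) and Usp22 (chr11:61151785-61175055) are on the minus strand. In the annotation 192 exonic bases of Usp16 are shared with Cct8 on the opposite strand, which read 33.5 to 40.0 FPKM, and 197 of Asxl1 and 155 of Asxl2 with antisense transcripts that read 1.53 FPKM at most (2500004C02Rik) and 1.37 FPKM at most (1110002L01Rik). The sources used here do not give the strand setting of the counting, and reads in those bases cannot be assigned to one gene or the other. An annotated antisense transcript in Usp3 shares 0 exonic bases with it.

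The promoters of the BAP1 catalytic subunit and of its alternative ASXL cofactors are shown because PRC1.1, the Polycomb complex the study is about, is brought to unmethylated CpG through KDM2B. RefSeq promoters (GRCm38.p6, 250 bases before to 50 after the start of transcription, written in the direction of transcription) were matched for 7 of the 8 members, all but Usp22. CpG dinucleotides are in capitals, in chr14:31251239-31251538 (plus strand), chr2:153345580-153345879 (plus strand) and chr12:3426607-3426906 (plus strand).
Bap1: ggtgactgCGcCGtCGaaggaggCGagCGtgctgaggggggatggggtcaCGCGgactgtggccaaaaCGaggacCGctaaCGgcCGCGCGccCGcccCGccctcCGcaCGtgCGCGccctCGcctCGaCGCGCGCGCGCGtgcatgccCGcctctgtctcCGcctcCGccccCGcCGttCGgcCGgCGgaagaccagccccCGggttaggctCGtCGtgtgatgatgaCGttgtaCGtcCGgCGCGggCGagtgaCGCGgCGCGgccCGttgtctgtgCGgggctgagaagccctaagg
Asxl1: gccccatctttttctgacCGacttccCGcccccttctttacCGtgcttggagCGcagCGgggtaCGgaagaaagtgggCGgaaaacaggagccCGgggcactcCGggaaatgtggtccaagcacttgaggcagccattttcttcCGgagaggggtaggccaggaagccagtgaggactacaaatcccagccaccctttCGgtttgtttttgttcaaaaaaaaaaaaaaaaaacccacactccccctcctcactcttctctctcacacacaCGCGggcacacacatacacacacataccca
Asxl2: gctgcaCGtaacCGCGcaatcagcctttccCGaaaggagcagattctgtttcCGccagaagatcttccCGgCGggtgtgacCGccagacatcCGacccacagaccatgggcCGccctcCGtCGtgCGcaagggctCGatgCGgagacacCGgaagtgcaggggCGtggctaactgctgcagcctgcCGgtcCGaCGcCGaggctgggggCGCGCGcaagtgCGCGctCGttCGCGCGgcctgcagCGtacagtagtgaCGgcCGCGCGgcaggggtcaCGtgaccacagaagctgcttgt

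Bap1 held 50 CpG in its 300 bases, more than 99.1% of 32851 promoters in the RefSeq table, and Asxl2 held 36, more than 93.8%. Asxl1, the paralog with the higher RNA level, held 13, more than 62.1%. The other promoters lay in between, with 25 CpG in Mysm1, 22 in Usp3, 18 in Usp21 and 17 in Usp16, against a median of 7 over all promoters. The observed over expected CpG ratio was 0.61 to 1.23 in the 7 promoters, against a median of 0.38. An E-box (CACGTG, the same on both strands, with a CpG inside it that is counted above) was found in Bap1, Asxl2 and Usp16, 3 of 7, and in 7.15% of all promoters. CCAAT on either strand was found in Usp3, 1 of 7, and in 37.4% of all, and TATAAA on either strand in 0 of 7 and in 13.6% of all. These matches describe the letters of the windows only.

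The libraries were checked before the members were compared. Summed FPKM was 366044 to 381302 per library and 12596 to 13592 genes had a value above 0. Read depth is unknown, so the counting error of a single value cannot be given. Unstimulated replicate 1 had the fewest detected genes and stood far out on the first principal component (37.9), with unstimulated replicate 2 at 9.32 and the 4 stimulated libraries from -13.3 to -10.5. Foxp3, which defines Treg, read 122 and 124 FPKM with iBP, 121 and 101 in stimulated and 35.5 and 47.1 in unstimulated libraries. The 6 Treg and T-cell markers took 0.220% and 0.217% of summed FPKM with iBP, 0.198% and 0.208% in stimulated and 0.138% and 0.154% in unstimulated libraries. RNA of B cells was present in every library: Cd79a, a B-cell receptor component, read 234 to 291 FPKM, above Foxp3 throughout, and 6 B-cell markers took 0.187% to 0.219% of summed FPKM. Dendritic and MHC class II markers took 2.05% to 2.48%, erythroid and platelet markers 0.0827% to 0.203%, myeloid markers 0.0174% to 0.0273%, pancreatic acinar markers 0.0114% to 0.0514% and stromal and endothelial markers 0.00384% to 0.00702%. In the first of these lists H2-Aa, H2-Ab1, H2-Eb1 and Cd74 read 1252 to 3604 FPKM. The dendritic markers Flt3 and Itgax read only 2.02 to 5.14 FPKM and at most 0.126 FPKM. CD8 markers took at most 0.00383% and NK markers at most 0.00103%, and 0 markers of any list were at 0 in all 6 libraries. A level in such bulk RNA can differ because fewer cells of a type were present or because each cell held less of the RNA, and these cannot be told apart.

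Bap1 read 17.4 and 21.2 FPKM in stimulated libraries with iBP, 19.8 and 14.6 FPKM in stimulated libraries, and 15.7 and 22.6 FPKM in unstimulated libraries. The groups overlapped throughout, and the lowest and the highest library were a stimulated and an unstimulated one. Its log2 difference was -0.14 ± 0.23 (SE) in stimulated against unstimulated (adjusted p = 0.900, limma) and 0.17 ± 0.23 in iBP against stimulated (adjusted p = 0.998, limma). The 95% interval of the second difference, not adjusted for the number of genes, ran from 0.80-fold to 1.58-fold.

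Asxl1, whose product activates BAP1, read 33.2 and 29.8 FPKM with iBP, 26.9 and 32.1 FPKM in stimulated and 24.9 and 26.4 FPKM in unstimulated libraries. All 4 stimulated libraries were above the unstimulated ones, stimulated replicate 1 by the smallest margin, as for 2 of the 8 genes when groups without overlap are counted in either direction (21.7% of all genes). The iBP and stimulated groups overlapped. The log2 difference was 0.19 ± 0.16 in stimulated against unstimulated (adjusted p = 0.764, limma), 0.28 ± 0.16 in iBP against unstimulated (adjusted p = 0.537, limma) and 0.092 ± 0.16 in iBP against stimulated (adjusted p = 0.998, limma). The first of these was 0.071 without stimulated replicate 2 and 0.32 without stimulated replicate 1. Asxl2, the paralog that can take its place on BAP1, read 12.8 and 11.8 FPKM with iBP, 10.8 and 12.5 FPKM in stimulated and 11.0 and 12.3 FPKM in unstimulated libraries. These groups overlapped, and the difference in stimulated against unstimulated was -0.0050 ± 0.21 (95% interval 0.73-fold to 1.36-fold).

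Asxl1 RNA exceeded Asxl2 RNA per length in every library. The ratio of Asxl1 to Asxl2 FPKM was 2.59 and 2.53 with iBP, 2.50 and 2.57 in stimulated and 2.25 and 2.15 in unstimulated libraries. The ratio was higher in all 4 stimulated libraries than in the unstimulated ones. No test of the ratio was run, and with 4 libraries against 2 an exact two-sided permutation test can give no p under 0.133. The summed level of both ASXL genes was 1.71 to 3.06 times that of Bap1. This ratio was 2.65 and 1.96 with iBP, 1.90 and 3.06 in stimulated and 2.28 and 1.71 in unstimulated libraries, with overlap between all groups. The highest library exceeded the lowest by 1.55-fold for Bap1, 1.33-fold for Asxl1 and 1.19-fold for Asxl2.

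**Figure D1:**
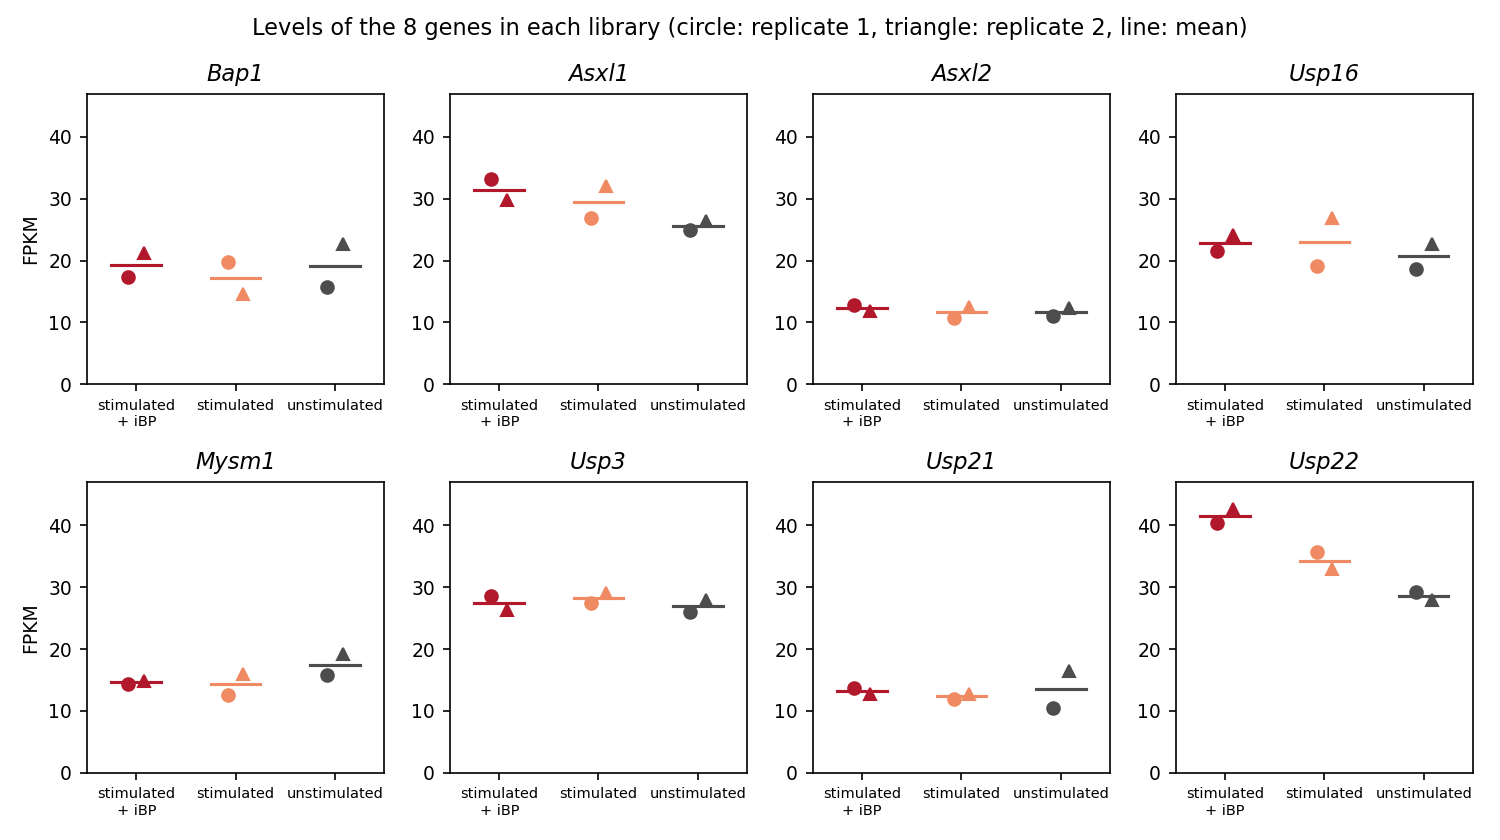
FPKM (vertical axis, from 0) of each of the 8 genes in the 3 groups (horizontal axis); each point is a library, circles are replicate 1 and triangles replicate 2, and lines are the means of 2 libraries. In the Usp22 panel the means are 41.5 with iBP, 34.3 in stimulated and 28.6 in unstimulated libraries and the groups do not overlap, while in the Bap1, Asxl2, Usp16, Usp3 and Usp21 panels every pair of groups overlaps.

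Usp16, a deubiquitinase linked to mitosis and to gene activation, read 21.6 and 24.1 FPKM with iBP, 19.1 and 26.9 FPKM in stimulated and 18.7 and 22.6 FPKM in unstimulated libraries. The stimulated libraries enclosed nearly the whole range of the others, and the difference was 0.14 ± 0.20 in stimulated against unstimulated (adjusted p = 0.890, limma), whereas iBP against stimulated gave 0.0083 ± 0.20. Mysm1, a metalloprotease that is needed for blood and lymphocyte development, read 14.4 and 14.8 FPKM with iBP, 12.6 and 16.0 FPKM in stimulated and 15.8 and 19.2 FPKM in unstimulated libraries. Its difference was -0.28 ± 0.20 in stimulated against unstimulated (95% interval 0.61-fold to 1.12-fold; adjusted p = 0.701, limma), and leaving out stimulated replicate 1 gave -0.11, stimulated replicate 2 -0.44 and unstimulated replicate 2 -0.14. With iBP both libraries lay below the unstimulated ones, at -0.24 ± 0.20 (adjusted p = 0.713, limma), or -0.37 without unstimulated replicate 1 and -0.10 without unstimulated replicate 2.

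Usp3, a deubiquitinase of H2A and H2B with a role in the DNA damage response, had the smallest ratio of highest to lowest library of the 8 (1.12): 28.6 and 26.4 FPKM with iBP, 27.4 and 29.0 FPKM in stimulated and 26.0 and 27.9 FPKM in unstimulated libraries. Its difference was 0.064 ± 0.16 in stimulated against unstimulated (95% interval 0.82-fold to 1.33-fold) and -0.038 ± 0.16 in iBP against stimulated (0.77-fold to 1.24-fold). The difference in iBP against stimulated was positive after each of the 3 rescalings of the libraries, from 0.00050 to 0.016. Usp21 read 13.7 and 12.7 FPKM with iBP, 12.0 and 12.7 FPKM in stimulated and 10.5 and 16.5 FPKM in unstimulated libraries. The unstimulated libraries held both its lowest and its highest value, and its difference was -0.088 ± 0.23 in stimulated against unstimulated, while iBP against stimulated gave 0.087 ± 0.23.

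Usp22 read 40.3 and 42.6 FPKM with iBP, 35.7 and 32.9 FPKM in stimulated and 29.2 and 28.0 FPKM in unstimulated libraries. Every library with iBP was above every stimulated one, and every stimulated one above every unstimulated one. This complete separation in that order was found in 1 of the 8 genes and in 1.5% of the 10436 genes tested (157), and separation in any order in 9.39% of them. It was looked at after the values were seen, and it is given as a description. The difference was 0.52 ± 0.15 in iBP against unstimulated, 1.43-fold with a 95% interval of 1.14-fold to 1.80-fold (unadjusted p = 0.00467; adjusted p = 0.133, limma). It was 0.25 ± 0.15 in stimulated against unstimulated (adjusted p = 0.600, limma) and 0.27 ± 0.15 in iBP against stimulated (adjusted p = 0.998, limma). Under the alternatives of processing the adjusted p of iBP against unstimulated lay between 0.0894 and 0.543, and the difference was positive under all 16 of them, from 0.48 to 0.58. The summed share of Treg and T-cell markers given above was likewise highest with iBP and lowest without stimulation. Among its genes only Foxp3 and Ctla4 kept this order in every library. For Cd3e the iBP and stimulated libraries overlapped. Il2ra peaked in stimulated replicate 2 (204 FPKM) and Ikzf2 in unstimulated replicate 2 (54.2 FPKM). Cd4 was lowest in the stimulated libraries without iBP (84.3 and 83.1 FPKM). The part of these markers in the Usp22 levels was not tested.

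Of the 8 genes, 0 passed in stimulated against unstimulated, where 1.29% of all tested genes did, at an adjusted p under 0.05 (limma, Benjamini-Hochberg over 10436 genes). In iBP against stimulated 0 of 8 passed, where 0.00958% of genes did (1 gene). In iBP against unstimulated it was 0 of 8 against 1.75%, in both stimulated groups against unstimulated 0 of 8 against 2.43%, and in the test for any difference among the 3 groups 0 of 8 against 1.49%. At an unadjusted p under 0.05 the counts were 0 of 8 in stimulated against unstimulated (10.8% of all genes), 0 of 8 in iBP against stimulated (4.77%), and 1 of 8, Usp22, in iBP against unstimulated (12.2%), in both stimulated groups against unstimulated (13.3%) and in the 3-group test (10.6%). No other tool was run. Libraries did not overlap for 2 of 8 genes in stimulated against unstimulated (Asxl1 and Usp22; 37.8% of all genes), for 1 of 8 in iBP against stimulated (Usp22; 34.6%) and for 3 of 8 in iBP against unstimulated (Asxl1, Mysm1 and Usp22; 42% of all genes). With 2 libraries a group an exact two-sided permutation test of one gene can give no p under 0.333. These comparisons share libraries, and their values are set side by side only.

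**Figure D2:**
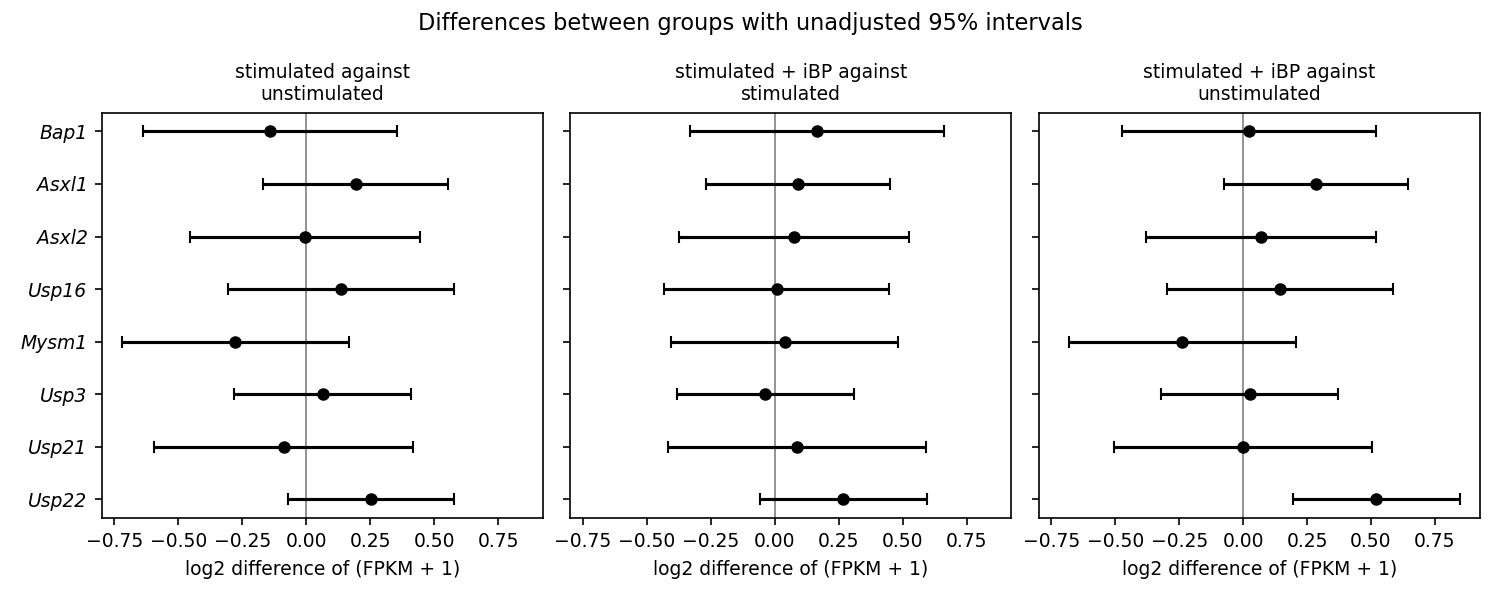
Log2 differences of (FPKM + 1) for the 8 genes (rows) in 3 comparisons (panels); points are the fitted differences and bars the 95% intervals, not adjusted for the number of genes. All bars of the 3 panels include 0 except that of Usp22 in iBP against unstimulated, at 0.52.

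The intervals bound what these libraries could hold. In stimulated against unstimulated the 8 intervals reached no further than 0.61-fold (Mysm1) and 1.49-fold (Usp22). In iBP against stimulated they reached no further than 0.74-fold (Usp16) and 1.58-fold (Bap1), on the log2(FPKM + 1) scale and before adjustment for the number of genes. The half-width of the interval had a median of 0.44 (log2) over the 8 genes in these comparisons, against 0.57 over all tested genes. Differences well under that width were not detectable with 2 libraries a group, and wider ones could also fail after adjustment. Usp22 differed by 0.52 in iBP against unstimulated and did not pass (adjusted p = 0.133, limma). The median difference of the 8 genes was 0.030 in stimulated against unstimulated (all tested genes -0.0024), 0.081 in iBP against stimulated (all -0.035) and 0.048 in iBP against unstimulated (all -0.033). Differences were positive for 4, 7 and 6 of the 8 genes in those comparisons in turn, against 49.7%, 44.2% and 45.6% of all tested genes. After each rescaling of the libraries they were positive for 4, 8 and 7, where Usp3 and Usp21 turned positive at 0.043 or less. The share over all genes after rescaling was not computed. In iBP against stimulated the median of all tested genes was then -0.00053 (median of ratios), 0.0053 (quantile) and 0.0021 (TPM). The median of the 8 genes was 0.117, 0.114 and 0.126 in the same order, and 0 of the 8 passed in these fits.

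The spread between replicates differed among the genes. On the log2(FPKM + 1) scale the residual SD within groups was 0.062 for Usp22 and 0.069 for Usp3, lower than in all but 3.31% and 4.62% of tested genes. The tests also drew on the spread of the other genes, so the SE of Usp22 (0.15) did not rest on its residual SD alone. It was 0.29 for Bap1, 0.25 for Usp21 and 0.23 for Usp16, near the middle of all genes, with 64.9%, 56.2% and 50.7% of genes below. Replicate 1 was below replicate 2 for 7 of 8 genes in unstimulated libraries, by up to 0.60 (Usp21), for 6 of 8 in stimulated and for 4 of 8 in iBP libraries. Over all tested genes the share below was 53.9%, 55.7% and 47.4% in the same groups. Unstimulated replicate 1, which stood apart on the first component, was thus the lower one for all of these genes except Usp22.

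**Figure D3:**
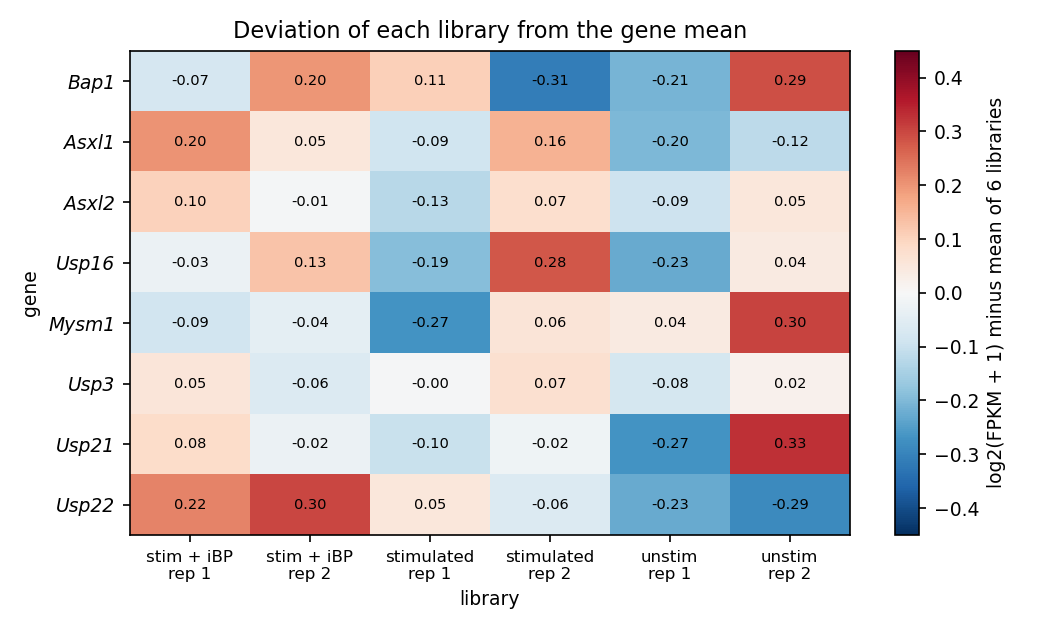
Deviation of log2(FPKM + 1) in each library (columns) from the mean of the 6 libraries, for the 8 genes (rows); red is above and blue below the mean. The Usp22 row holds 0.22 and 0.30 with iBP, 0.05 and -0.06 in stimulated and -0.23 and -0.29 in unstimulated libraries, while in the Bap1 and Usp21 rows the strongest colours are within groups.

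In order of their mean level over the 6 libraries the genes ran Usp22 (34.8 ± 5.90 FPKM, SD, n = 6), Asxl1 (28.9 ± 3.34), Usp3 (27.6 ± 1.20), Usp16 (22.2 ± 3.11), Bap1 (18.6 ± 3.17), Mysm1 (15.5 ± 2.2), Usp21 (13.0 ± 1.99) and Asxl2 (11.9 ± 0.819). The ranges of every pair of neighbours in this order overlapped. Within libraries the order of neighbours was kept in 6 of 6 for Usp22 over Asxl1, Usp3 over Usp16 and Mysm1 over Usp21. It was kept in 5 of 6 for Usp16 over Bap1 and Usp21 over Asxl2, in 4 of 6 for Bap1 over Mysm1 and in 3 of 6 for Asxl1 over Usp3. Usp22 thus had the highest level in all 6 libraries. Usp3 was above Asxl1 in both unstimulated libraries and in stimulated replicate 1, and below it in stimulated replicate 2 and both libraries with iBP.

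The other genes of the H2A ubiquitin cycle were taken from 5 lists with 41 members, of which 34 passed the filter on low values. Of these, 0 rose and 0 fell in stimulated against unstimulated, in iBP against stimulated or in iBP against unstimulated, against the background shares given above. At an unadjusted p under 0.05 there were 4 of 34 in stimulated against unstimulated (10.8% of all genes), 0 of 34 in iBP against stimulated (4.77%) and 2 of 34 in iBP against unstimulated (12.2%). The median differences were -0.024, -0.0087 and -0.0078 in those comparisons in turn. Of the members that did not pass the filter, Asxl3, the third ASXL paralog, and Usp51, a USP22 paralog, were listed at 0 in all 6 libraries. Ring1 read at most 0.438 FPKM, whereas Rnf2, the other catalytic ligase of PRC1, read 58.3 and 52.3 FPKM with iBP, 55.4 and 44.3 FPKM in stimulated and 54.1 and 63.6 FPKM in unstimulated libraries. Rnf2 was thus higher than any of the 8 erasers and cofactors in every library, at 2.46 to 3.43 times Bap1.

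Among the partners of BAP1 and ASXL proteins, 7 of 8 were tested and 0 passed. Ogt, which adds O-GlcNAc to proteins and binds the complex, read 26.5 and 25.6 FPKM with iBP, 21.1 and 29.6 FPKM in stimulated and 25.4 and 26.8 FPKM in unstimulated libraries. Kdm1b, a histone H3K4 demethylase, had the largest difference of the list in stimulated against unstimulated, -0.60 ± 0.30 (adjusted p = 0.509, limma). It read 5.21 and 4.18 FPKM with iBP, 4.29 and 3.56 FPKM in stimulated and 8.30 and 4.97 FPKM in unstimulated libraries. Hcfc1, a host cell factor that BAP1 binds, had the largest difference in iBP against stimulated, 0.46 ± 0.27 (adjusted p = 0.998, limma). Its levels were 8.50 and 7.02 FPKM with iBP, 5.31 and 5.34 FPKM in stimulated and 5.12 and 8.30 FPKM in unstimulated libraries.

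In the list of the SAGA module around USP22 and its paralogs, 6 of 8 were tested and 0 passed. Atxn7l1, a paralog of the SAGA subunit gene Atxn7, read 34.2 and 37.4 FPKM with iBP, 28.8 and 36.5 FPKM in stimulated and 24.3 and 25.3 FPKM in unstimulated libraries. All 4 stimulated libraries were above the unstimulated ones (groups without overlap in either direction, 21.7% of all genes), and the difference in iBP against unstimulated, 0.51 ± 0.17 (adjusted p = 0.200, limma), was close in size to that of Usp22. Atxn7 itself, which anchors the module in SAGA, read 7.14 and 5.53 FPKM with iBP, 9.35 and 7.73 FPKM in stimulated and 7.76 and 8.05 FPKM in unstimulated libraries. It lay lower with iBP than in stimulated libraries by -0.38 ± 0.24 (log2; adjusted p = 0.998, limma). Eny2 is a small subunit that the module needs. It read 2.91 and 3.30 FPKM with iBP, 3.27 and 4.04 FPKM in stimulated and 4.45 and 4.44 FPKM in unstimulated libraries. Its difference in iBP against unstimulated was -0.41 ± 0.28 (adjusted p = 0.627, limma). Over the list the median in that comparison was 0.027 (all tested genes -0.033), and 3 of 6 differences were positive (45.6% of all tested genes).

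Other deubiquitinases and cofactors reported on H2A or H2B were tested in 9 of 11 cases and 0 passed. Usp46, whose product works with WDR48, had the largest difference, -1.04 ± 0.39 in stimulated against unstimulated (adjusted p = 0.330, limma). Its levels were low: 1.38 and 1.26 FPKM with iBP, 1.26 and 0.319 FPKM in stimulated and 3.37 and 1.90 FPKM in unstimulated libraries. Usp7, a deubiquitinase found in PRC1.1, read 18.3 to 25.9 FPKM.

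H2A ubiquitin ligases were tested in 6 of 8 cases and 0 passed. Their median difference was -0.19 in stimulated against unstimulated, -0.29 in iBP against stimulated and -0.49 in iBP against unstimulated. These were the lowest medians of the 5 lists. In the last comparison 1 of 6 differences was positive, against 45.6% of all tested genes. Rnf2 gave -0.086 ± 0.16 there. Dzip3, Rnf168 and Brca1 gave -0.48, -0.49 and -0.53 but read no more than 5.05 FPKM in any library. Rnf8, a ligase of the DNA damage response, read 32.8 and 21.7 FPKM with iBP, 29.0 and 26.7 FPKM in stimulated and 48.0 and 33.8 FPKM in unstimulated libraries, -0.58 ± 0.22 in iBP against unstimulated (adjusted p = 0.289, limma). Rnf168, which acts after RNF8 on H2A lysines other than K119, had the largest difference in iBP against stimulated, -0.67 ± 0.32 (adjusted p = 0.998, limma). It read 2.25 and 2.51 FPKM with iBP, 3.95 and 4.88 FPKM in stimulated and 5.05 and 2.75 FPKM in unstimulated libraries. Its iBP and stimulated libraries did not overlap, as for 34.6% of all genes. Trim37 had the largest difference in stimulated against unstimulated, 0.96 ± 0.41 (adjusted p = 0.426, limma). For Trim37 unstimulated replicate 1 read 0.426 FPKM and the other 5 libraries 2.09 to 3.48 FPKM.

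Readers of ubiquitinated H2A were tested in 6 of 6 cases and 0 passed. Jarid2, a PRC2 accessory subunit that binds H2AK119ub1, read 24.8 and 23.5 FPKM with iBP, 24.4 and 29.6 FPKM in stimulated and 19.5 and 21.6 FPKM in unstimulated libraries, 0.37 ± 0.17 in stimulated against unstimulated (adjusted p = 0.475, limma). Dnajc2, also called ZRF1, had the largest difference in iBP against stimulated, -0.37 ± 0.19 (adjusted p = 0.998, limma). Yaf2, a PRC1 subunit related to RYBP, had the largest in iBP against unstimulated, -0.25 ± 0.17 (adjusted p = 0.615, limma).

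**Figure D4:**
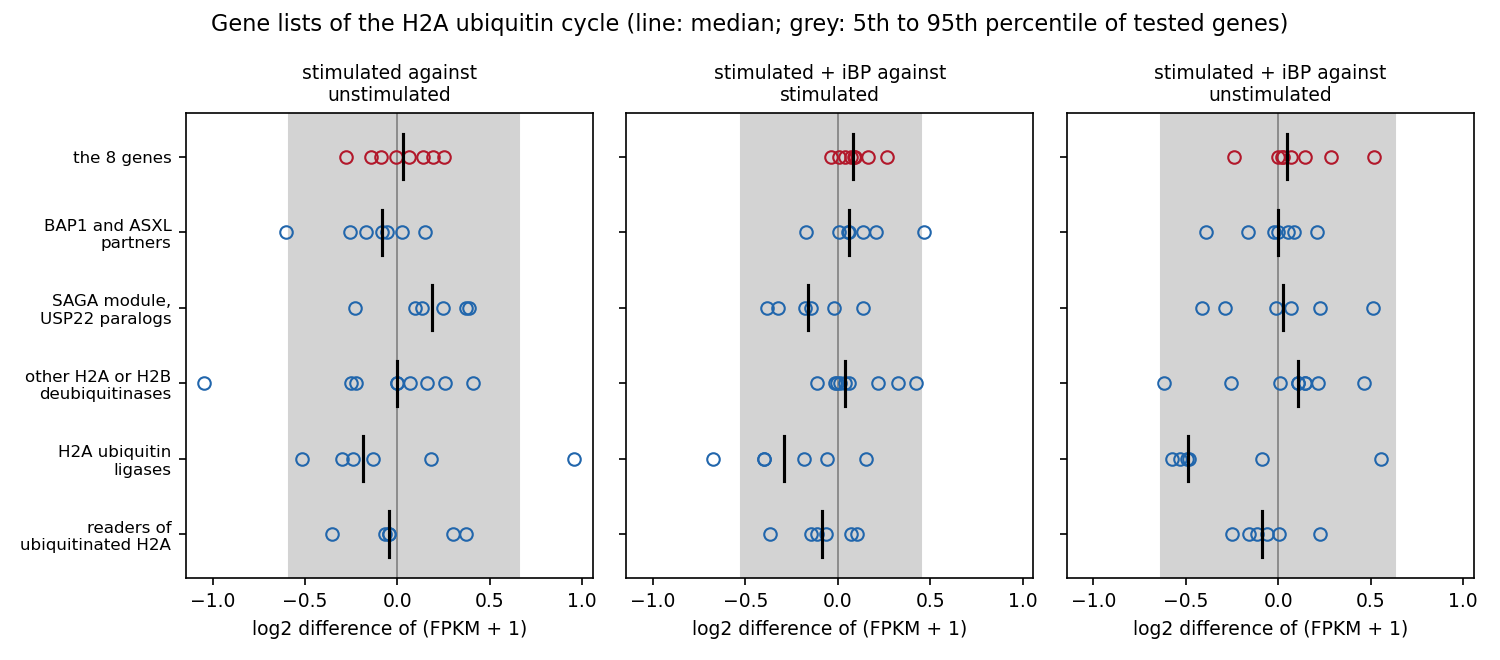
Log2 differences of (FPKM + 1) of the 8 genes (red) and of the tested members of 5 related lists (blue) in 3 comparisons; vertical lines are medians and the grey band runs from the 5th to the 95th percentile of all tested genes (-0.59 to 0.66, -0.53 to 0.45 and -0.63 to 0.63 in the panels from left to right). All 8 red points lie inside the band in each panel, and of the blue points Usp46 at -1.04, Kdm1b at -0.60 and Trim37 at 0.96 lie outside it in the first panel, Rnf168 at -0.67 and Hcfc1 at 0.46 in the second and none in the third.

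Genes with the most similar profiles were found by Pearson's r of log2(FPKM + 1) over the 6 libraries, among the 10435 other tested genes. With so few libraries many genes reach a high r: the gene at rank 100 had an r of 0.88 to 0.91 depending on the member. Usp22 was followed most closely by Mapk6 (r = 0.995), then Tmem261 and Snora68 (both 0.975). Mapk6, an atypical MAP kinase gene, read 28.8 and 30.2 FPKM with iBP, 27.0 and 25.0 FPKM in stimulated and 23.8 and 22.5 FPKM in unstimulated libraries. Its groups did not overlap, which is likely for any gene picked for its likeness to Usp22. Asxl2 was followed by Bcl2l1 (0.995), Dock11 (0.994) and Erlec1 (0.978), and Asxl1 by Sptbn1 (0.988), Lrrc66 (0.987) and Lgals4 (0.986). Bap1 was followed by Dnmbp (0.986), Crot (0.984) and Pcgf1 (0.982). Pcgf1, the PCGF subunit of PRC1.1, read 2.97 and 3.21 FPKM with iBP, 3.25 and 2.61 FPKM in stimulated and 2.79 and 3.42 FPKM in unstimulated libraries, a narrower range on the log2 scale (0.29) than that of Bap1 (0.60). The closest genes were Tprn (0.987), 4931406H21Rik (0.979) and Sc5d (0.978) for Usp16 and Helb (0.990), 6030468B19Rik (0.985) and Tbk1 (0.981) for Mysm1. They were Arhgap30 (0.994), Mcm8 (0.983) and Far2 (0.980) for Usp3 and Tjap1 (0.988), Il18rap (0.975) and Dazap1 (0.971) for Usp21. These values describe 6 libraries and carry no p.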

How the data were processed

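SMART-seq libraries of wild-type Treg were analysed, 2 in each of 3 groups. The authors deposited FPKM values, and the submitters' processing notes name HISAT2 2.2.1, StringTie 2.1.1 and mm10. The sources used here do not give the annotation, filters or strand setting, and depth is unknown. FPKM totals are only roughly fixed, so a large change in abundant genes would move the others. Treg of Kdm2b cKO mice, which the design text names, were not analysed here.

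Values were taken as log2(FPKM + 1), and the 10436 of 24421 genes with at least 1 FPKM in at least 2 libraries were tested, all 8 members among them. A model of the 3 groups was fitted to all genes and 6 libraries with limma 3.58.1 (R 4.3.3), using variances moderated along a trend (residual degrees of freedom 3, prior 8.52). All p-values are two-sided and were adjusted by Benjamini-Hochberg over the tested genes, with a threshold of 0.05. The code was tested on simulated data. The members, the 5 lists and the rule for named genes (all members; from each list the member with the largest difference where none passed, beside genes named for their role after their values were seen; the 3 genes of highest r for each member) were chosen with earlier results of these data known. Alternatives were a pseudocount of 0.1, no filter, a minimum of 5 FPKM, 3 rescalings (TPM, median of ratios, quantile), no variance trend, robust moderation, a replicate block, a fit of the compared groups alone, and leaving out each library. Errors of means are SDs. Sequences come from RefSeq tables. Figures were drawn with matplotlib 3.10.9 (Python 3.11.15).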

Additional observations from a re-analysis of the deposited data

How the results depend on the processing

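Of 504 values of the 8 genes under the alternatives, 0 passed the test, and the lowest adjusted p was 0.0894 (limma; Usp22 in iBP against unstimulated, minimum of 5 FPKM). The sign turned in 35 of them, 28 by leaving out a library, with neither value past the test. In iBP against unstimulated, Usp21 was -0.0011 and became 0.0010 with a pseudocount of 0.1, 0.043 as TPM, 0.033 by median of ratios and 0.030 by quantile. In iBP against stimulated, Usp3 was -0.038 and became 0.0037 as TPM, 0.00050 by median of ratios and 0.016 by quantile. Leaving out a library, with the spread of the remaining lone sample taken from the other groups, gave, in stimulated against unstimulated, -0.39 to 0.11 for Bap1, 0.071 to 0.32 for Asxl1, -0.11 to 0.10 for Asxl2, -0.10 to 0.37 for Usp16, -0.44 to -0.11 for Mysm1 and -0.39 to 0.21 for Usp21. In iBP against stimulated it gave -0.043 to 0.37 for Bap1, -0.031 to 0.21 for Asxl1, -0.026 to 0.17 for Asxl2, -0.23 to 0.24 for Usp16, -0.12 to 0.20 for Mysm1 and -0.095 to 0.020 for Usp3. In iBP against unstimulated it gave -0.23 to 0.27 for Bap1, -0.0018 to 0.14 for Asxl2, -0.031 to 0.084 for Usp3 and -0.30 to 0.30 for Usp21, and in both stimulated groups against unstimulated -0.31 to 0.19 for Bap1, -0.039 to 0.10 for Asxl2, -0.0037 to 0.095 for Usp3 and -0.34 to 0.25 for Usp21.

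The numbers of all genes past the test were 135 in stimulated against unstimulated, 1 in iBP against stimulated, 183 in iBP against unstimulated, 254 in both stimulated groups against unstimulated and 155 for any difference. In the same order they were 12, 0, 11, 20 and 6 with no filter and 12, 0, 9, 32 and 6 with no variance trend, and the cause was not tested. Leaving out a library gave 54 (without stimulated replicate 2) to 141, 0 (without either stimulated library) to 5 (without iBP replicate 1), 53 (without iBP replicate 2) to 190, 116 (without unstimulated replicate 1) to 224 and 65 (without unstimulated replicate 1) to 146. A fit of the compared groups alone gave 79 in stimulated against unstimulated. Replicates with the same number did not deviate together (r across genes -0.012, -0.018 and -0.046). Such an r cannot show whether they share a source, which is not in the labels. With the replicate block the counts were 79 in stimulated against unstimulated, 109 in iBP against unstimulated and 78 for any difference, and 0 of the 8 genes passed. With 2 libraries a group and no read counts, the precision of a single level is unknown.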
